A study of Mus musculus with 12 samples.

Results

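Interferon-stimulated genes are the genes a cell turns on after interferon binds its receptor, and 45 of them were followed in the livers of mice fed a diet restricted in sulfur amino acids. The 45 genes were chosen by symbol, from earlier results of the same livers, and all 45 were among the 14670 genes with enough reads to be tested, out of 36047 genes with a listed transcript. They were split by what they are known for into 32 targets of type I interferon, 12 guanylate-binding proteins (GBP), immunity-related GTPases (IRG) and antigen processing genes, and the chemokine gene Cxcl10. Because the choice was made with the diet comparisons in view, the calls given for these genes describe them and are no independent evidence of a direction.

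The livers came from 12 singly housed adult male C57Bl/6J mice, 5 to 6 months old, 3 in each group. Mice ate a regular-fat diet (RF, 18% of energy as fat) or a high-fat diet (HF, 60%), each as a control (Ctrl) or with methionine reduced (sulfur amino acid restriction, SAAR), for 7 days. The regular-fat and high-fat diets came from different suppliers, so fat level cannot be told apart from other differences between those diets. The paper reports that HF.SAAR mice took in less protein and sulfur amino acids by weight than RF.SAAR mice. Every diet lacked cysteine, and food was removed 4 h before the livers were taken. Every mouse was injected with deuterium-labelled water at the start of the diets and then drank it. RNA of whole liver was sequenced, so fewer cells of a type and less RNA per cell cannot be told apart, and each library held 16203094 to 21230092 estimated counts.

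Type I interferons signal through the receptor IFNAR and the kinases JAK1 and TYK2 to a complex that holds STAT2 and IRF9 and binds a DNA element called the interferon-stimulated response element (ISRE). Interferon gamma acts through another DNA element, the gamma-activated site (GAS), and is known as the main inducer of many GBP, IRG and antigen processing genes. Many of the products block viral replication or mark infected compartments, and hepatocytes as well as liver macrophages respond to interferon.

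The sequence before the start site was available from RefSeq (GRCm38.p6) for 33 of the 45 genes, as windows of 250 bases before and 50 after the start. An ISRE core was searched as GAAANNGAAA or, on the other strand, TTTCNNTTTC, and a GAS core as TTCNNNGAA, which reads the same on both strands. An ISRE core was present in 19 of the 33 windows (57.6%), against 3.44% of all 32851 windows, and a GAS core in 7 (21.2%), against 8.30%. Both kinds of gene held ISRE cores, 13 of 23 type I targets and 5 of 9 GBP, IRG and antigen processing genes. A GAS core was in 4 of the 23 and 3 of the 9. For 4 members with several windows the first listed was used. The 130 bases before the start are shown for 5 genes that hold a core and that were called with the diet, and for Irf7, which was called and holds neither core in its window. Capitals mark the bases of each core, and the sequences run 5′ to 3′ along the strand of the gene.
Isg15 (chr4:156200819-156200948, minus strand): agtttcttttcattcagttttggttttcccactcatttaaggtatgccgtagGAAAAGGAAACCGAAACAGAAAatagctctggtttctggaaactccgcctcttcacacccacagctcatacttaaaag
Rsad2 (chr12:26456453-26456582, minus strand): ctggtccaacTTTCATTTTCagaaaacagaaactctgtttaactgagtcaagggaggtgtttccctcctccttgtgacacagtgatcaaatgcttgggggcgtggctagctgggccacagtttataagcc
Gbp3 (chr3:142559914-142560043, plus strand): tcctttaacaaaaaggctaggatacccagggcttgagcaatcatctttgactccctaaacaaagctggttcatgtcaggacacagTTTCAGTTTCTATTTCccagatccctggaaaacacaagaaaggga
Igtp (chr11:58199426-58199555, plus strand): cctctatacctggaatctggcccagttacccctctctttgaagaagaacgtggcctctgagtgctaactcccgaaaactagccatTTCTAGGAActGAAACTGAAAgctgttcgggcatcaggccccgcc
Irgm1 (chr11:48871421-48871550, minus strand): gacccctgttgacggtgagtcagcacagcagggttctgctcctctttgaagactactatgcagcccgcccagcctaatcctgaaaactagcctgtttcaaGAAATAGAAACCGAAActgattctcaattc
Irf7 (chr7:141266425-141266554, minus strand): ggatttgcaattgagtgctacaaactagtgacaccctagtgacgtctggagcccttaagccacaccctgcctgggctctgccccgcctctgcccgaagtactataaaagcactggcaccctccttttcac
Isg15 held 3 overlapping ISRE cores, which begin 78, 72 and 66 bases before the start. Gbp3 and Irgm1 held 2 overlapping ISRE cores each, within 45 bases of the start. Igtp held a GAS core 45 bases before the start and an ISRE core 34 bases before it. In Rsad2 the core lay on the other strand, as did both cores of Gbp3, and it began 120 bases before the start. A match of these letters does not show that a factor binds there, and a window without a match says nothing about other sites of the gene.

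**Figure D1:**
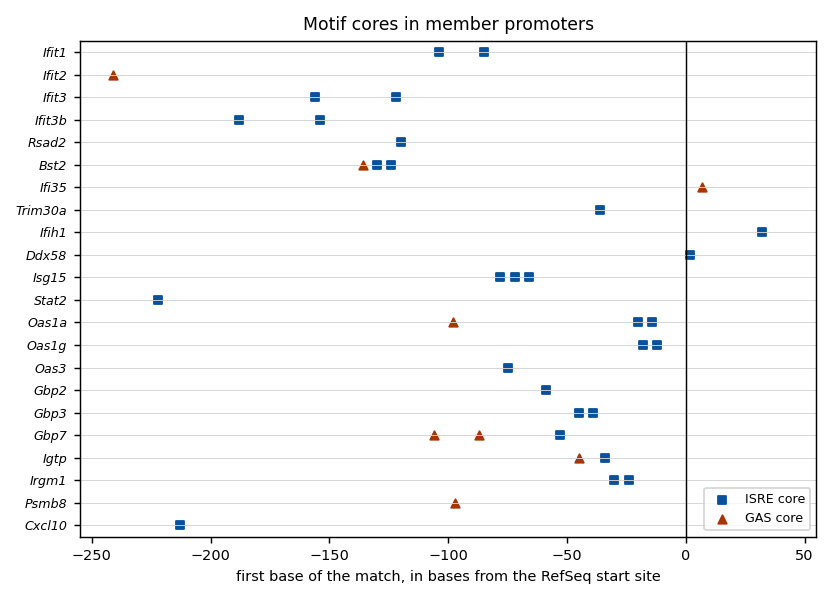
Distance in bases from the RefSeq start site (x axis) of the first base of each ISRE core (squares) and GAS core (triangles) in the windows of the 22 genes (y axis) that hold at least 1 core. The cores of Isg15, Gbp3, Igtp and Irgm1 begin within 80 bases before the start.

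In regular-fat livers (RF.SAAR vs. RF.Ctrl) all 32 type I targets had a positive log2 fold change, and 6 were called higher at an adjusted p under 0.05: Usp18, Irf7, Ifi44, Rsad2, Parp9 and Rtp4. Of the 12 GBP, IRG and antigen processing genes 3 were called higher, Gbp3, Igtp and Irgm1, and none lower. Over all genes tested 0.6% were called higher and 0.886% lower. The median log2 fold change was 0.64 over the type I targets and 0.15 over the GBP, IRG and antigen processing genes, beside -0.0013 over all genes. All RF.SAAR mice lay above all RF.Ctrl mice for 23 of the 32 type I targets and for 4 of the 12 others, where 8.51% of all genes did so. The RF.SAAR mice lay below the RF.Ctrl mice for 1 member, Gbp11, and for 9.7% of all genes.

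In high-fat livers (HF.SAAR vs. HF.Ctrl) fewer members were called. Usp18 and Irf7 were higher and Gbp11 was lower, while 1.01% of all genes were called higher and 0.961% lower. The median was 0.23 over the type I targets, of which 24 of 32 were positive, and -0.07 over the 12 GBP, IRG and antigen processing genes. All HF.SAAR mice lay above all HF.Ctrl mice for 8 of the 32 type I targets and 2 of the 12 others, where 8.89% of all genes did so. They lay below for 2 members, Gbp11 and Psmb9, and for 8.97% of all genes. DESeq2 called 16 members higher and 1 lower on regular fat, where it called 2.13% of all genes with an adjusted p higher and 2.67% lower. On high fat it called the same 3 genes as edgeR, where it called 2.47% of all genes higher and 2.18% lower. Calls of single genes given below are those of edgeR unless DESeq2 is named.

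**Figure D2:**
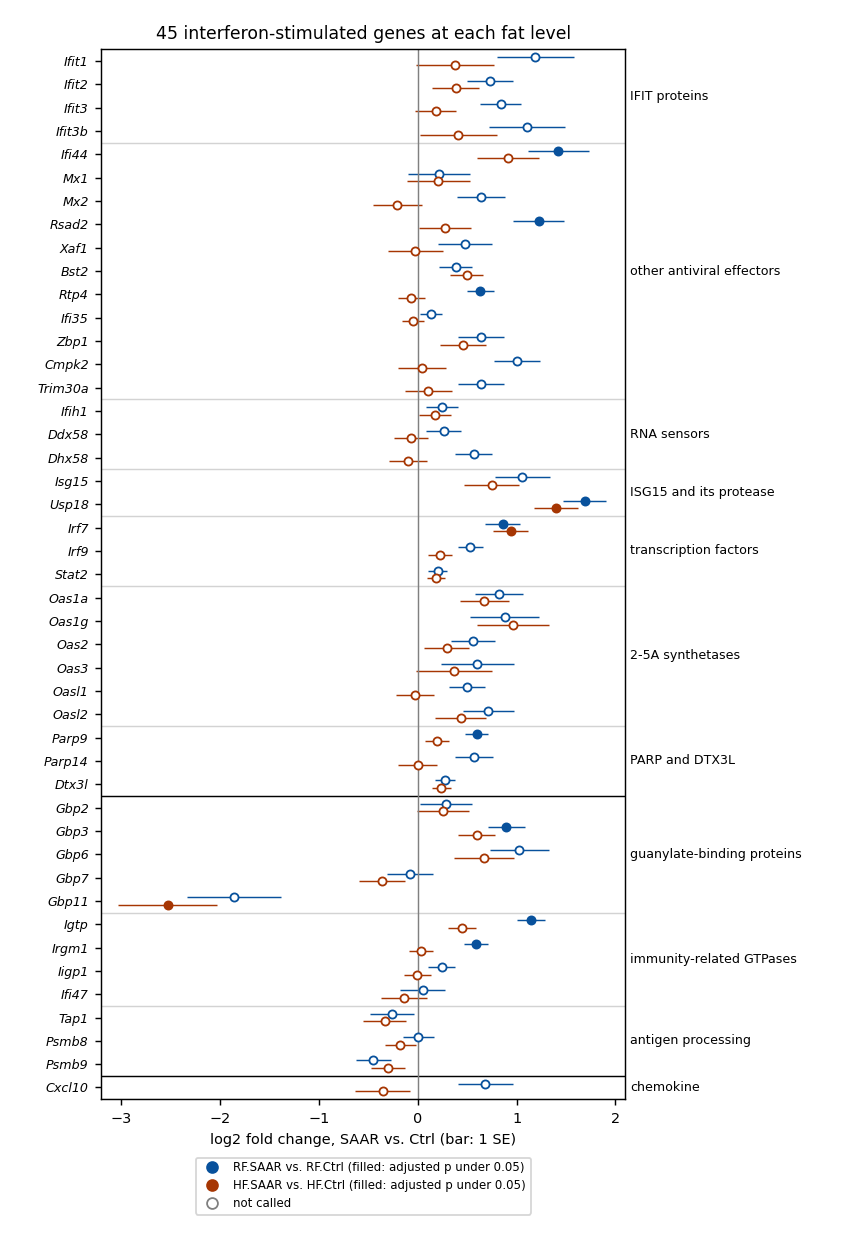
Log2 fold change of SAAR vs. Ctrl (x axis, bars 1 SE, n = 3 mice per group) for the 45 genes (y axis, grouped by role), on regular fat in blue and on high fat in brown, with filled points for an adjusted p under 0.05. The type I targets at the top lie to the right of 0 on regular fat, Gbp11 lies farthest to the left at both fat levels, and the antigen processing genes lie from -0.45 to 0.01 on regular fat and below 0 on high fat.

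Usp18, the protease that removes ISG15 from proteins and restrains IFNAR signaling, had the largest positive log2 fold change of the members on regular fat. Its level in the 3 RF.Ctrl mice was 9.16, 10.1 and 15.7 normalized CPM (counts per 1e6 counts of the library), and RF.SAAR mice had 41.1, 28.1 and 43.5. That is a log2 difference of 1.69 ± 0.22, given as value ± SE here and for all genes (edgeR adjusted p = 0.0028). On high fat the CPM were 10.3, 11.1 and 10.1 in HF.Ctrl and 26.6, 22.7 and 33.5 in HF.SAAR, a log2 fold change of 1.40 ± 0.22 (edgeR adjusted p = 0.0058). No restricted mouse overlapped a control mouse at either fat level. Isg15, the ubiquitin-like protein that USP18 removes, had normalized CPM of 5.38, 4.19 and 6.502 in RF.Ctrl, 12.5, 9.86 and 11.04 in RF.SAAR, 5.26, 6.45 and 2.44 in HF.Ctrl and 7.24, 7.23 and 9.33 in HF.SAAR. Its groups did not overlap at either fat level, but edgeR called it only over both fat levels together (log2 fold change 0.90 ± 0.20, edgeR adjusted p = 0.014).

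Among the transcription factors, Irf7, which amplifies interferon production, had normalized CPM of 22.5, 20 and 21.9 in RF.Ctrl and 44.7, 28.3 and 43.7 in RF.SAAR. In HF.Ctrl they were 18.02, 23.1 and 14.8 and in HF.SAAR 35.01, 34.7 and 37.8. Its log2 fold changes were 0.86 ± 0.18 on regular fat and 0.94 ± 0.18 on high fat, of similar size, and the restricted mice lay above the controls at both. Irf9, the DNA-binding partner of STAT2, had normalized CPM of 28.4, 29.7 and 35.2 in RF.Ctrl, 45.5, 43.4 and 45.97 in RF.SAAR, 31.5, 31.5 and 26.2 in HF.Ctrl and 37.2, 28.8 and 38.2 in HF.SAAR. HF.SAAR mouse 2 lay among the HF.Ctrl mice for Irf9, which was called over both fat levels (log2 fold change 0.38 ± 0.09, edgeR adjusted p = 0.021). Stat2 had log2 fold changes of 0.20 ± 0.09 and 0.19 ± 0.09, was called in neither comparison, and had normalized CPM of 44.98, 44.9 and 47.1 in RF.Ctrl, 56.2, 46.4 and 54.8 in RF.SAAR, 37.4, 37.1 and 37.4 in HF.Ctrl and 41.9, 40.2 and 45.1 in HF.SAAR.

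The IFIT proteins bind viral RNA and block its translation. Ifit3 had normalized CPM of 9.098, 11.6 and 13.9 in RF.Ctrl and 23.6, 16.4 and 21.8 in RF.SAAR, and 9.97, 10.95 and 11.03 in HF.Ctrl and 12.3, 8.63 and 15.3 in HF.SAAR. Ifit1 had normalized CPM of 4.86, 5.58 and 5.96 in RF.Ctrl, 17.4, 8.43 and 11.6 in RF.SAAR, 4.44, 5.62 and 5.24 in HF.Ctrl and 7.77, 2.53 and 9.61 in HF.SAAR. For all 4 IFIT genes the RF.SAAR mice lay above the RF.Ctrl mice and the HF groups overlapped, and none of the 4 was called in any comparison by edgeR. Of the 31-base words of Ifit3, 61.8% also occur in Ifit3b, so reads cannot always be assigned to one of them, and both are uncertain for that reason.

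The enzymatically active members of the 2-5A synthetase family make the messenger that activates the RNA-cutting enzyme RNase L. Oas1a had normalized CPM of 4.01, 3.58 and 3.22 in RF.Ctrl, 6.93, 5.73 and 6.47 in RF.SAAR, 1.91, 4.17 and 2.68 in HF.Ctrl and 4.396, 4.13 and 5.56 in HF.SAAR. Oas1g had normalized CPM of 1.14, 1.13 and 1.76 in RF.Ctrl, 3.41, 1.38 and 2.62 in RF.SAAR, 1.09, 1.11 and 0.98 in HF.Ctrl and 2.36, 1.602 and 2.26 in HF.SAAR. Both were called over both fat levels (log2 fold changes 0.75 ± 0.17 and 0.92 ± 0.25), but 68.7% of the 31-base words of Oas1a also occur in Oas1g, so the split between them is uncertain. Of the OASL genes, Oasl1 was at 7.95, 8.44 and 9.18 in RF.Ctrl, 12.95, 11.03 and 12.1 in RF.SAAR, 6.21, 5.67 and 5.91 in HF.Ctrl and 5.95, 4.03 and 7.44 in HF.SAAR. Its log2 fold change was 0.50 ± 0.18 on regular fat and -0.03 ± 0.19 on high fat. Oasl2 was at 4.23, 7.26 and 5.35 in RF.Ctrl, 9.97, 7.79 and 9.96 in RF.SAAR, 4.91, 5.004 and 4.15 in HF.Ctrl and 6.22, 4.08 and 8.67 in HF.SAAR, and the 6 genes together had 6 positive fold changes on regular fat and 5 on high fat.

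Of the other antiviral effectors, Rsad2 (viperin, which makes a chain-terminating nucleotide) had normalized CPM of 7.38, 6.75 and 8.26 in RF.Ctrl and 20.6, 15.3 and 16.3 in RF.SAAR, a log2 fold change of 1.22 ± 0.26 (edgeR adjusted p = 0.036). In HF.Ctrl it was at 6.14, 8.51 and 8.17 and in HF.SAAR at 10.99, 4.96 and 11.8, and those groups overlapped through HF.SAAR mouse 2 (log2 fold change 0.28 ± 0.26). Cmpk2, a mitochondrial nucleotide kinase whose gene neighbours Rsad2, had log2 fold changes of 1.002 ± 0.23 and 0.04 ± 0.24 and was called in neither by edgeR. Ifi44 was at 2.804, 2.46 and 4.497 in RF.Ctrl, 9.59, 6.31 and 10.2 in RF.SAAR, 3.82, 3.11 and 2.499 in HF.Ctrl and 6.17, 3.67 and 7.91 in HF.SAAR, and was called on regular fat (1.42 ± 0.31). HF.SAAR mouse 2 was also the one restricted mouse that fell within the control range for Ifi44. Rtp4 was at 18.3, 17.1 and 18.3 in RF.Ctrl, 29.1, 29.3 and 24.9 in RF.SAAR, 19.3, 22.6 and 15.8 in HF.Ctrl and 18.7, 16.1 and 20.5 in HF.SAAR, with log2 fold changes of 0.63 ± 0.14 and -0.06 ± 0.14. Bst2 (tetherin, which holds budding viruses at the membrane) was one of the most abundant members, at a mean of 171 TPM (transcripts per 1e6 transcripts, a length-corrected level) over the 12 mice. Its CPM were 87.3, 87.3 and 74.8 in RF.Ctrl, 106, 114 and 106 in RF.SAAR, 71.3, 90.02 and 50.2 in HF.Ctrl and 88.1, 109 and 101 in HF.SAAR, with HF.SAAR mouse 1 below HF.Ctrl mouse 2. Bst2 was called over both fat levels (0.44 ± 0.12, edgeR adjusted p = 0.039) but at neither alone.

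The RNA sensors had the lowest median log2 fold change of the type I roles on regular fat, 0.26. Ifih1 (MDA5, which detects long double-stranded RNA) was at 32.7, 34.7 and 43.7 in RF.Ctrl, 45.4, 36.8 and 49.5 in RF.SAAR, 33.9, 33.03 and 38.8 in HF.Ctrl and 39.1, 31.5 and 48.5 in HF.SAAR. Ddx58 (RIG-I) was at 20.5, 22.3 and 30.1 in RF.Ctrl, 34.4, 24.5 and 28.6 in RF.SAAR, 22.2, 21.7 and 25.8 in HF.Ctrl and 24.8, 17.6 and 24.1 in HF.SAAR. The groups of both genes overlapped at each fat level, and neither they nor Dhx58 was called by edgeR in any of the 7 comparisons. Parp9 and its partner Dtx3l, which act together in ubiquitin and ADP-ribose marking, are neighbouring genes whose transcripts share 8.54% of the 31-base words of Parp9. Parp9 was at 48.5, 42.6 and 51.7 in RF.Ctrl, 70.5, 61.5 and 83.8 in RF.SAAR, 46.2, 44.3 and 49.3 in HF.Ctrl and 55.3, 49.9 and 54.9 in HF.SAAR, and was called on regular fat (0.60 ± 0.12, edgeR adjusted p = 0.025). Dtx3l was at 36.8, 41.5 and 40.4 in RF.Ctrl, 47.5, 42.3 and 53.8 in RF.SAAR, 41.7, 38.3 and 43.04 in HF.Ctrl and 48.7, 48.6 and 47.9 in HF.SAAR, and was called over both fat levels together (0.26 ± 0.07).

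Among the immunity-related GTPases, a family that takes part in defence against intracellular pathogens, Igtp (Irgm3) had the largest log2 fold change. It was at 17.3, 18.6 and 25.9 in RF.Ctrl, 48.6, 42.8 and 45.2 in RF.SAAR, 18.2, 17.1 and 19.6 in HF.Ctrl and 24.6, 23.1 and 27.1 in HF.SAAR. Neither pair of groups overlapped, and the log2 fold change was 1.15 ± 0.14 on regular fat (edgeR adjusted p = 0.0017) and 0.45 ± 0.14 on high fat (edgeR adjusted p = 0.14). Irgm1 was at 43.8, 43.99 and 54.6 in RF.Ctrl, 72.4, 64.7 and 77.2 in RF.SAAR, 50.3, 50.4 and 49.1 in HF.Ctrl and 58.5, 45.1 and 49.6 in HF.SAAR, with a log2 fold change of 0.59 ± 0.12 on regular fat and 0.03 ± 0.12 on high fat. Iigp1, the most abundant member with a mean of 203 TPM over the 12 mice, had normalized CPM of 394, 383 and 512 in RF.Ctrl, 529, 415 and 583 in RF.SAAR, 467, 476 and 505 in HF.Ctrl and 466, 457 and 522 in HF.SAAR. Its groups overlapped at both fat levels, with log2 fold changes of 0.24 ± 0.13 and -0.0034 ± 0.13.

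The guanylate-binding proteins are GTPases that coat pathogen vacuoles, and they went in both directions. Gbp3 was at 4.81, 7.37 and 7.596 in RF.Ctrl, 13.5, 9.76 and 13.6 in RF.SAAR, 6.96, 7.17 and 7.07 in HF.Ctrl and 10.5, 9.404 and 12.2 in HF.SAAR, and was called on regular fat (0.90 ± 0.19, edgeR adjusted p = 0.031). Gbp6 was at 11.4, 14.02 and 23.7 in RF.Ctrl, 37.9, 24.1 and 38.01 in RF.SAAR, 18.6, 13.2 and 15.9 in HF.Ctrl and 27.7, 16.999 and 30.99 in HF.SAAR, and was called over both fat levels (0.85 ± 0.21). Gbp11, which the annotation lists as a polymorphic pseudogene, was at 11.2, 18.9 and 21.03 in RF.Ctrl and 3.25, 6.26 and 4.57 in RF.SAAR. In HF.Ctrl it was at 29.8, 10.3 and 9.39 and in HF.SAAR at 2.57, 2.02 and 3.91, so that restricted and control mice did not overlap at either fat level. The log2 fold change of Gbp11 was -1.86 ± 0.48 on regular fat (edgeR adjusted p = 0.1) and -2.53 ± 0.50 on high fat (edgeR adjusted p = 0.033), opposite in sign to those of Gbp3 and Gbp6. Gbp6 and Gbp11 lie in one cluster (GRCm38 chr5:105270702-105293698 and chr5:105323042-105346472). Of the 31-base words of Gbp11, 34.3% occur in other genes, chiefly Gbp8 and Gbp4, and of those of Gbp6 74.2% do, chiefly in Gm43302 and Gbp10, so the values of both are uncertain. Gbp4, Gbp8, Gbp10 and Gm43302 were not called in either diet comparison. Gm43302 was at 1.09, 0 and 1.03 normalized CPM in RF.Ctrl, 0 in all 3 RF.SAAR mice, 4.3, 0.389 and 1.83 in HF.Ctrl and 0.536, 0 and 0 in HF.SAAR (edgeR adjusted p = 0.085 over both fat levels), so that its highest values were in control mice and those of Gbp6 in restricted mice.

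The 3 antigen processing members, Tap1 (the peptide transporter) and Psmb8 and Psmb9 (immunoproteasome subunits), were called in none of the comparisons. Psmb8 was at 16.99, 20 and 19.02 in RF.Ctrl, 20.9, 17.5 and 17.9 in RF.SAAR, 22.4, 21.5 and 16.2 in HF.Ctrl and 14.05, 19.4 and 19.6 in HF.SAAR. Psmb9 was at 9.498, 12.4 and 12.8 in RF.Ctrl, 7.04, 10.6 and 7.76 in RF.SAAR, 11.7, 11.3 and 10.3 in HF.Ctrl and 7.61, 9.61 and 9.84 in HF.SAAR. Their log2 fold changes ran from -0.45 to 0.01 on regular fat and from -0.33 to -0.18 on high fat. Cxcl10, which draws T cells, had log2 fold changes of 0.68 ± 0.28 and -0.35 ± 0.28 and was not called. The other 15 members, Ifit2, Ifit3b, Mx1, Mx2, Xaf1, Ifi35, Zbp1, Trim30a, Dhx58, Oas2, Oas3, Parp14, Gbp2, Gbp7 and Ifi47, were called in no comparison by edgeR, with log2 fold changes from -0.08 (Gbp7) to 1.10 (Ifit3b) on regular fat and from -0.36 (Gbp7) to 0.46 (Zbp1) on high fat.

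**Figure D3:**
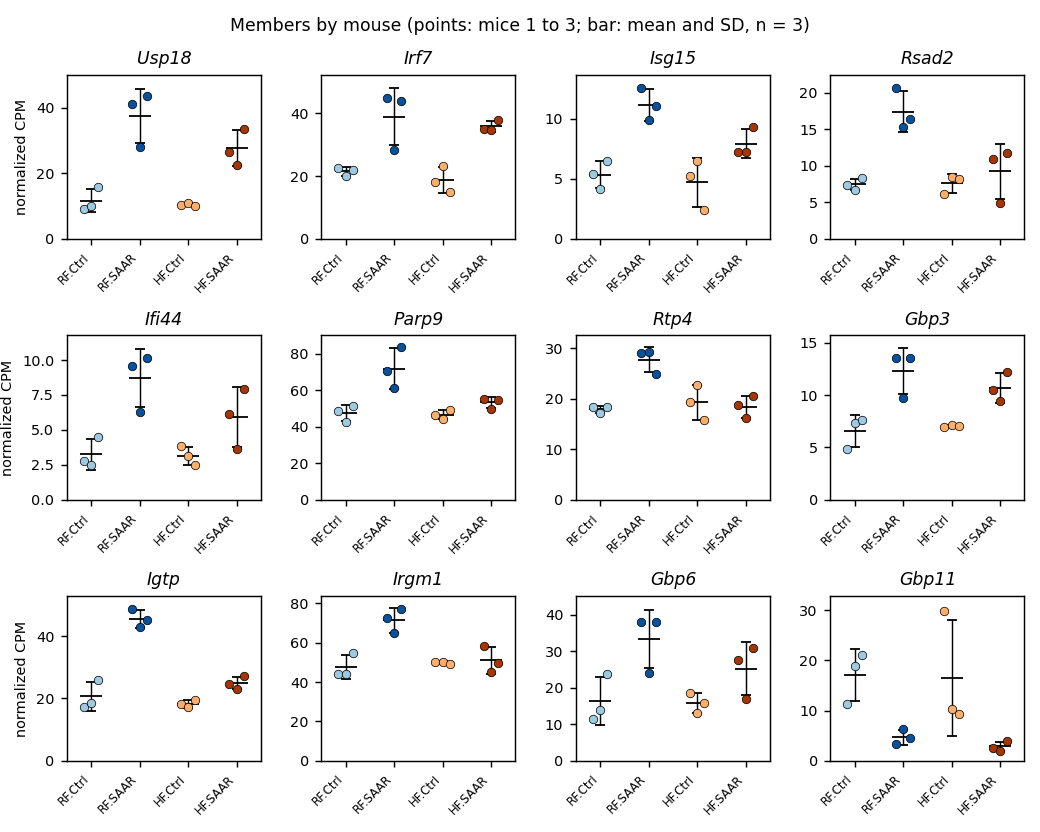
Normalized CPM (y axis, from 0) of 12 members in each mouse (points, n = 3 per group), with the mean and SD as bars. Usp18 and Irf7 are higher in both restricted groups, Igtp, Irgm1, Rsad2 and Rtp4 are highest in RF.SAAR, and Gbp11 is lower in both restricted groups.

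Restricted mice on both fat levels were also compared directly (HF.SAAR vs. RF.SAAR). The RF.SAAR mice also took part in the diet comparisons known when the members were chosen, so the direction here is no independent evidence. Of the 45 members 42 had a negative log2 fold change and 1 was called, Igtp (-0.87 ± 0.14, edgeR adjusted p = 0.045), where 0.0477% of all genes were called. The median was -0.48 over the type I targets and -0.26 over the GBP, IRG and antigen processing genes, beside 0.0065 over all genes. All HF.SAAR mice lay below all RF.SAAR mice for 14 of the 32 type I targets and 2 of the 12 others, where 4.68% of all genes did so. They lay above for 0 members and for 5.47% of all genes. DESeq2 called 6 members lower, Dhx58, Cmpk2, Rtp4, Oasl1, Irgm1 and Igtp, where it called 0.206% of all genes lower. In control mice (HF.Ctrl vs. RF.Ctrl) no member was called by edgeR or DESeq2, which called 0.0% and 0.212% of all genes. In edgeR 2 of 45 members had an unadjusted p under 0.05, as did 3.59% of all genes. The interaction of diet and fat, which tests whether the response to restriction differed between fat levels, called no member with either tool, and called 0.00682% of all genes with edgeR and 0.106% with DESeq2. In edgeR 10 of 45 members had an unadjusted p under 0.05, as did 3.15% of all genes. A difference between the fat levels in the response of any one member was therefore not established by this test.

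Over both fat levels (SAAR vs. Ctrl) 15 members were called higher, 11 type I targets and 4 GBP and IRG genes, and Gbp11 was called lower, while 3.22% of all genes were called higher and 3.7% lower. Over both diets (HF vs. RF) edgeR called no member and 0.0409% of all genes, and DESeq2 called 3 members lower, where it called 0.306% of all genes lower. In edgeR 14 of 45 members had an unadjusted p under 0.05, as did 5.84% of all genes. Leaving out a mouse moved the regular-fat count of 9 by over 1.5 times for 6 mice. It fell to 2 without RF.Ctrl mouse 1, RF.Ctrl mouse 2, RF.SAAR mouse 1 or RF.SAAR mouse 3, to 4 without RF.Ctrl mouse 3 and to 5 without HF.Ctrl mouse 1. The calls over all genes, 218, fell with it, to 99, 99, 124, 95, 87 and 143 in the same order. The high-fat count of 3 fell to 1 without HF.SAAR mouse 1 or mouse 3, where the calls over all genes fell from 289 to 119 and 155. The count over both fat levels, 16, fell to 8 without HF.SAAR mouse 3, to 9 without RF.Ctrl mouse 1 or 2, and to 10 without HF.Ctrl mouse 1, HF.SAAR mouse 1, RF.SAAR mouse 1 or RF.SAAR mouse 3, where the calls over all genes fell from 1015 to between 655 and 838. The single call in HF.SAAR vs. RF.SAAR was lost without any one of 10 mice, all except RF.Ctrl mice 1 and 3.

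Each mouse was also given the median, over the genes of a class, of its log2 level relative to the mean of the RF.Ctrl mice. For the type I targets this was 0.73, 0.40 and 0.72 in RF.SAAR, 0.10, -0.16 and 0.30 in HF.SAAR, -0.11, -0.06 and 0.13 in RF.Ctrl and -0.15, -0.03 and -0.17 in HF.Ctrl. The RF.SAAR mice stood above all other mice. HF.SAAR mice 1 and 2 stood within the range of the control mice, and HF.SAAR mouse 3 stood above it. For the GBP, IRG and antigen processing genes the same medians were 0.19, -0.06 and 0.28 in RF.SAAR and -0.15, -0.09 and 0.23 in HF.SAAR. Those lay within the range of the control mice but for RF.SAAR mouse 3, from -0.33 to 0.27. Mouse 2 was the lowest of its group for 39 of 45 members in RF.SAAR and 35 of 45 in HF.SAAR, while over all genes it was the lowest for 35.2% and 33.9%. HF.SAAR mouse 3 was the highest of its group for 38 of 45 members, beside 33.8% of all genes, and RF.Ctrl mouse 3 for 30 of 45, beside 33.9%.

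**Figure D4:**
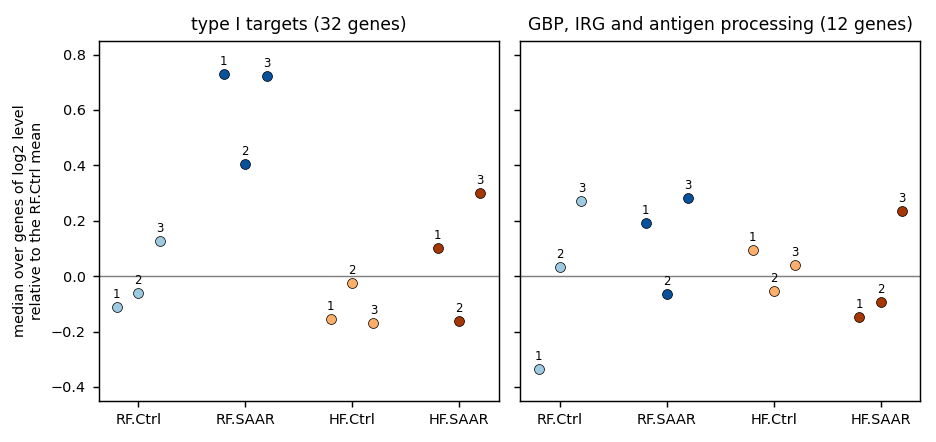
Median over the genes of each class of the log2 level relative to the RF.Ctrl mean (y axis), per mouse (points, labelled 1 to 3 within each group on the x axis). The type I targets of the 3 RF.SAAR mice lie from 0.40 to 0.73, above every other mouse, and the GBP, IRG and antigen processing genes of the groups overlap.

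Genes of the interferon pathway outside the 45 were read from lists of general knowledge. Of 21 interferon genes 17 were at 0 in all 12 mice and none had enough reads to be tested. The highest was at 0.243 CPM, where a count of 0 allows up to 0.144 to 0.188 CPM per library (3 counts, counting error only). None of the 14 tested receptor and signaling genes was called at a single fat level by edgeR or DESeq2, with 2 at an unadjusted p under 0.05 in edgeR on each fat level, where 13.6% and 12.4% of all genes were. Of 13 tested genes that sense nucleic acids upstream of interferon, edgeR called none at a single fat level. DESeq2 called 1 on high fat, Irf5, which was lower (DESeq2 adjusted p = 0.02), where it called 2.18% of all genes lower. Irf1 had log2 fold changes of -0.10 ± 0.33 and -0.08 ± 0.33, and Irf2, which represses interferon targets, was lower over both fat levels (-0.34 ± 0.09, edgeR adjusted p = 0.03), as was Irf5 (-0.73 ± 0.16, edgeR adjusted p = 0.014).

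Of 71 other interferon-stimulated genes tested, edgeR called 3 higher on regular fat and 4 on high fat, and none lower. Over all genes it called 0.6% and 1.01% higher and 0.886% and 0.961% lower. DESeq2 also called Trim25, Tapbp, Oas1b and Ifi27 higher on regular fat and Ifi27 on high fat. It called 2.13% and 2.47% of all genes higher. Apol9a, an apolipoprotein L gene, was at 27.1, 31.5 and 46.2 in RF.Ctrl, 102, 80.4 and 122 in RF.SAAR, 40.5, 46.1 and 32.3 in HF.Ctrl and 76.4, 63.8 and 79.5 in HF.SAAR. It was called at both fat levels (1.54 ± 0.21, edgeR adjusted p = 0.0041, and 0.88 ± 0.21, edgeR adjusted p = 0.049), as were Apol9b (1.06 ± 0.18 and 0.80 ± 0.18) and Lgals3bp (0.67 ± 0.12 and 0.51 ± 0.12). Ly6e was called on high fat (0.65 ± 0.14). In HF.SAAR vs. RF.SAAR DESeq2 called Eif2ak2 (log2 fold change -0.71) and Rnf213 (-0.93) lower, where it called 0.206% of all genes lower. EdgeR called neither gene there. Over both diets (HF vs. RF) DESeq2 also called Eif2ak2 lower (-0.46), where it called 0.306% of all genes lower. The 40 type I targets among the 71 had a median log2 fold change of 0.36 on regular fat and 0.09 on high fat. The 11 GBP and IRG genes had 0.10 and 0.06, beside -0.0013 and -0.0014 over all genes.

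Markers of other liver cells were read beside these results. The sum of 9 Kupffer cell and macrophage markers ran over 374 to 465 CPM among RF.Ctrl mice, 351 to 427 among RF.SAAR mice, 339 to 456 among HF.Ctrl mice and 380 to 548 among HF.SAAR mice, and none of the 9 was called. All 6 hepatocyte markers were expressed in every mouse, and their sum ran over 81701 to 95605 CPM among RF.Ctrl mice, 71208 to 78003 among RF.SAAR mice, 75425 to 88396 among HF.Ctrl mice and 71339 to 82599 among HF.SAAR mice. The RF.SAAR mice lay below the RF.Ctrl mice, and the HF groups overlapped. Of the 6, Serpina1c was called lower with restriction at both fat levels (-0.60 ± 0.10 and -0.43 ± 0.10). Of 4 stellate cell markers 1 was called on regular fat, Lrat, which was lower (-0.86 ± 0.19). The sum of the 4 ran over 223 to 265 CPM among RF.Ctrl mice and 201 to 238 among RF.SAAR mice, which overlap. Of 5 markers of sinusoidal endothelium 1 was called over both fat levels together, Lyve1, which was higher (0.55 ± 0.11). On regular fat the sum of the 5 ran over 200 to 235 CPM in RF.Ctrl and 218 to 236 in RF.SAAR. On high fat it ran over 214 to 231 in HF.Ctrl and 220 to 235 in HF.SAAR. B and plasma cell markers summed to 60.1 CPM in HF.SAAR mouse 3 and 43.2 in RF.SAAR mouse 1, and to 5.79 to 19.9 in the other 10 mice, and T cell markers to 9.89 and 7.36 in the same mice and 1.88 to 4.74 in the others, with none called. The part of these cell types in the member results was not tested. Plasmacytoid dendritic cell markers ran from 11.8 to 17.1 CPM over the 12 mice, with none of 3 called. Genes of the pancreatic acinar cell, which a liver should lack, summed to 33.2 to 64.2 CPM in 7 mice, but to 870 in RF.Ctrl mouse 1, 988 in HF.Ctrl mouse 1, 3518 in HF.Ctrl mouse 2, 2267 in HF.SAAR mouse 2 and 10649 in HF.SAAR mouse 3. With these 12 genes taken out of the counts the member calls were 9, 3 and 16 on regular fat, on high fat and over both. With the mice above 1000 CPM left out they were 8, 0 and 6, and with the mice above 500 CPM left out 3, 0 and 6. The calls over all genes, 218, 289 and 1015, went to 160, 30 and 380 with the first cutoff and to 81, 6 and 234 with the second. The part of pancreatic RNA in the member results was not tested beyond this.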

How the data were processed

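RNA of 12 livers was sequenced after polyA selection, per the methods of the study. Per the labels and these methods the authors used FastQC, cutadapt and kallisto on the mouse Ensembl 94 transcripts. The deposited values are estimated counts, effective lengths and TPM per transcript. The labels swap 2 fields, so that the one named diet holds the fat level. Here estimated counts were summed per gene (GENCODE M21 names, GRCm38, 116816 of 118489 transcripts matched) and rounded. Genes with enough counts (filterByExpr, 14670) were fitted with edgeR 4.0.16 over all 12 mice, with TMM scaling and a robust quasi-likelihood test, and p-values were adjusted over all genes tested (Benjamini-Hochberg, threshold 0.05). SE is the log2 fold change divided by the root of F. DESeq2 1.42.0 was an alternative. CPM are TMM-normalized, and the TPM the authors deposited served for levels between genes.

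The 45 members and all gene lists were chosen with earlier results of these data known. Every member may be named, with values per mouse for those called in any of the 7 comparisons and for the 2 most abundant of each role. Words of 31 bases, the length kallisto uses, were compared between transcripts. In 11 members at least 10% of these words also occur in other genes, among them Igtp (15.9%), Isg15 (13.1%) and Ifit1 (10.4%). The fit was tested on simulated counts. Each group is 3 separate mice, too few for an exact test of a single value to pass 0.05. The labels mention no molecular identifiers, so floors cover counting error only. Alternatives were other scalings, filters, length offsets, samples in the fit and each mouse left out, and, added after the data were seen, the removal of pancreatic acinar genes or of mice with over 500 or over 1000 CPM of them. Libraries held 16203094 to 21230092 estimated counts. DESeq2 shares are of the genes it gives an adjusted p. One gene of the signaling list, counted with the others, is not reported here.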

Additional observations from a re-analysis of the deposited data

How the results depend on the processing

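The number of members called depended on the fit. DESeq2 called 17 on regular fat, 6 in HF.SAAR vs. RF.SAAR and 3 over both diets, and the fit without a filter on low counts called 2 in each of the last 2. Scaling by library size alone called 14 on regular fat, 5 on high fat, 26 over both fat levels and 0 in HF.SAAR vs. RF.SAAR. Its calls over all genes were 425, 719, 2449 and 4, against 218, 289, 1015 and 7, and it raised the median of all genes by 0.16, 0.17 and 0.16 in the 3 diet comparisons, with type I medians of 0.80, 0.40 and 0.61. TPM in place of CPM raised the median of all genes by 0.26, 0.33 and 0.30, and gave medians of 0.90, 0.54 and 0.73 for type I targets and 0.41, 0.27 and 0.33 for the GBP, IRG and antigen processing genes. Offsets for effective length called 0 in HF.SAAR vs. RF.SAAR. Leaving out a mouse gave 2 to 13 calls on regular fat, 1 to 4 on high fat, 0 to 1 in HF.SAAR vs. RF.SAAR, 8 to 18 over both fat levels and 0 to 1 over both diets (1 without HF.SAAR mouse 3), and type I medians of -0.66 to -0.37 in HF.SAAR vs. RF.SAAR. Chosen after seeing the data, leaving out the mice with over 500 CPM of acinar genes called 3, 0, 0 and 6 on regular fat, on high fat, in HF.SAAR vs. RF.SAAR and over both fat levels, and leaving out those with over 1000 CPM called 8, 0, 0 and 6. These leave 1 mouse in some groups, which is then assumed to vary like the others. The cause of these changes was not tested. No called value of a member changed sign under these alternatives. Over both fat levels the calls lost most often were Dtx3l, in 15 of 21 alternatives, Gbp6, Irgm1 and Oas1g, in 12 each, and Bst2 and Rsad2, in 10 each. Igtp in HF.SAAR vs. RF.SAAR was lost in 14 of 22. On regular fat Gbp3 was lost in 10 of 22 and Igtp in 0, and on high fat Gbp11 was lost in 9. No paired analysis was possible because the labels give no replicate numbers; mice are numbered here in accession order, which pairs none of them.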
